A study of Mus musculus with 4 samples.

Results

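Runx2 occupancy was described at 7 genes, Twist1, Twist2, Zfp521, Trps1, Snai1, Snai2 and Schip1, out of 22359 protein-coding genes of the mouse annotation used. The genes were taken by name as a set of proteins that hold back Runx2. Earlier results of these data were known when they were chosen. For Schip1 no such role could be traced in the sources used here, so it is a member by name alone. Every peak that shared at least 1 bp with a gene body widened by 50 kb on each side was counted as belonging to that gene. The day 0 list placed 40 of its 25457 peaks in these windows, the day 9 list 63 of 60596 and the day 28 list 49 of 40330, and overlapping peaks of the 3 lists merged into 70 of the 67703 regions of the whole series. Runx2 was precipitated with the M70 antibody from MC3T3-E1 subclone 4 cells, a preosteoblast line derived from mouse calvaria (strain C57BL/6, passages 28-31). The cells were proliferating at day 0, depositing matrix at day 9 and mineralizing at day 28 under ascorbic acid and beta-glycerophosphate, and input chromatin came from day 9. The replicate libraries of each day had been pooled into a single list of peaks that passed a p-value of 1e-10, so there is no replicate error, no difference between days was tested, and the read depth behind a peak is not given in the lists. By the read totals of the study the proliferating stage was sequenced most deeply, and its peak list is the shortest. The model is 1 subclone of a cell line, and expression of these genes was not analysed here.

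Runx2 is the runt-domain transcription factor that osteoblasts need to form, and it binds DNA as a dimer with Cbfb. Several nuclear proteins hold it in check in skeletal cells. The basic helix-loop-helix proteins Twist1 and Twist2 bind its runt domain, the zinc finger protein Zfp521 and the GATA-type protein Trps1 repress its transcriptional activity, and Snai1 and Snai2 are zinc finger repressors that bind E-box sequences. Schip1 is known as a partner of schwannomin, the product of Nf2, and is no DNA-binding repressor. A Runx2 peak at one of the others is a place where Runx2 itself was found near the gene of a protein that restrains it.

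The core of the sequence that Runx proteins bind is TGTGGT, and the stretches below show it in 9 chosen member regions. Other member regions hold it too and are not printed, such as the Snai1 region at 37.1 kb, with 4 copies. The distances given below are thus not those of member peaks as a whole. Printed are high-scoring regions past Snai1 and Twist2 and at the end of Trps1, and the promoter region of Twist1. A Trps1 region seen at day 0 only and distal regions of Snai2 and Schip1 are printed as well. Each is read 5′ to 3′ from NCBIM37 (mm9) on the strand that carries the motif, with the motif in capitals and 30 bases on either side. None of the stretches touches an exon of a protein-coding transcript.
Snai1, 52.5 kb past the start site, chr2:167416069-167416134, minus strand: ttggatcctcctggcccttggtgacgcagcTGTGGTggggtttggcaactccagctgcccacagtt
Snai1, 53.4 kb past the start site, chr2:167417066-167417131, plus strand: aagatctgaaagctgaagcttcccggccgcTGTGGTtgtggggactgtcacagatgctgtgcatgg
Snai1, 34.0 kb past the start site, chr2:167397821-167397886, minus strand: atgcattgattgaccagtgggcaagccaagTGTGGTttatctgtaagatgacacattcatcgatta
Twist1, promoter region, chr12:34641872-34641937, minus strand: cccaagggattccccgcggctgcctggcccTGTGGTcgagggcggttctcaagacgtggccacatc
Twist2, 59.9 kb past the start site, chr1:93757833-93757898, plus strand: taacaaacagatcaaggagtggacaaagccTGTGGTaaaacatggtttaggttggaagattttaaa
Trps1, 225.1 kb past the start site, chr15:50496445-50496510, minus strand: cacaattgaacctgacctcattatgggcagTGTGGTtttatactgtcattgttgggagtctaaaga
Trps1, 198.8 kb past the start site, day 0 only, chr15:50522728-50522793, plus strand: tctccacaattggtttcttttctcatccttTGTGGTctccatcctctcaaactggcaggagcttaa
Snai2, 30.5 kb past the start site, chr16:14736410-14736475, plus strand: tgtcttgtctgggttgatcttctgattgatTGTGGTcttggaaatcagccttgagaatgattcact
Schip1, 527.8 kb past the start site, chr3:68396698-68396763, plus strand: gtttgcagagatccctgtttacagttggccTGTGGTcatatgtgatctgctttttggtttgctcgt
In the Trps1 region 225.1 kb past the start site the motif lay 0 bp from the centre of the highest-ranked peak. It lay 10 bp from the centre in the Snai1 region at 53.4 kb and 14 bp from it in the Snai2 and Schip1 regions. The distance was 31 bp in the Trps1 region at 198.8 kb, 48 bp in the Snai1 region at 52.5 kb and 56 bp in the Twist2 region. It was 182 bp in the Snai1 region at 34.0 kb and 854 bp in the Twist1 promoter region. A match is a description of the letters and not a shown binding site, and the share of all peaks with the motif is given with the motif counts.

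Every one of the 7 genes had at least 1 Runx2 peak in its window on each day. That is common among protein-coding genes, of which 73.8% had a peak in the same kind of window at day 0, 83.2% at day 9 and 78.4% at day 28. Twist1 had 3, 3 and 3 peaks at days 0, 9 and 28. Twist2 had 2, 4 and 5 peaks, and Snai2 had 2, 3 and 2. These 3 genes lay near the median gene, which had 2, 5 and 3 peaks. Zfp521 had 3, 12 and 9 peaks. Schip1 had 4, 15 and 9 peaks. Both genes are long, and both had more peaks at day 9 than at either other day. Snai1 had 19, 22 and 16 peaks around a gene of 4.6 kb. Trps1 had 7, 4 and 5 peaks, with the most at day 0, an order that no other member had.

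**Figure D1:**
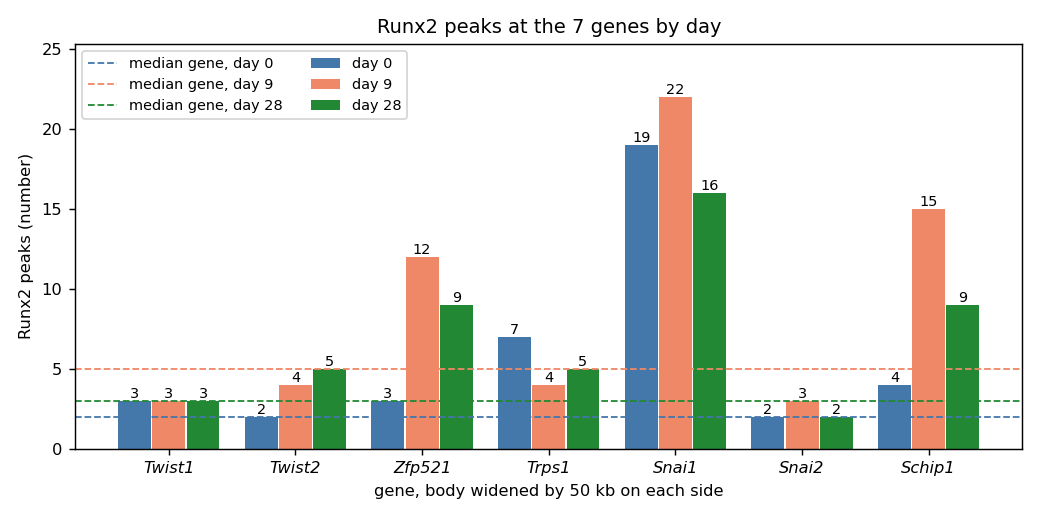
Number of Runx2 peaks (vertical axis) in the window of each gene at day 0, day 9 and day 28, with dashed lines at the median of all protein-coding genes on each day (2, 5 and 3 peaks). Snai1 carries 16 to 22 peaks on every day, and Trps1 is the only gene with fewer peaks at day 9 (4) than at day 0 (7).

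Ranked by peak number among all protein-coding genes, with ties counted midway, Snai1 stood at percentile 99.9 at day 0, 96.9 at day 9 and 97.9 at day 28. Only 23 of the 22359 genes, Snai1 among them, had 19 or more peaks in their windows at day 0. Per 100 kb of window Snai1 had 18.2, 21.0 and 15.3 peaks, against medians of 1.63, 3.52 and 2.42 over all genes. By number Zfp521 stood at percentiles 61.2, 82.7 and 86.1, and Schip1 at 72.0, 89.2 and 86.1. Per 100 kb they stood below the median gene, at percentiles 32.7, 47.0 and 49.1 for Zfp521 and 29.5, 38.5 and 35.9 for Schip1. Trps1 stood at percentile 90.4 at day 0, 44.8 at day 9 and 65.3 at day 28 by number, and at 60.5, 27.7 and 37.3 per 100 kb. Twist1, Twist2 and Snai2 lay between percentiles 37.4 and 65.3 on all days.

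From day 0 to day 9 the number of peaks was higher for 5 of the 7 genes, equal for Twist1 and lower for Trps1. Among all protein-coding genes 71.9% had more peaks at day 9 than at day 0, and 4.02% had fewer. The day 9 list is also the longest. With the 25457 highest-scoring peaks taken from each list, the member windows held 40, 34 and 32 peaks in the order of the days, so that day 0 came first. Under that setting Snai1 had 19, 12 and 13 peaks, whereas Zfp521 had 3, 6 and 5 and Schip1 had 4, 7 and 3.

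Of the 70 merged regions, 28 (40.0%, 95% interval 28.5 to 52.4%) held a peak on all 3 days, against 27.4% of all regions of the series. Day 9 alone accounted for 14 regions (20.0%, 11.4 to 31.3%), against 34.5% of all regions. Days 9 and 28 shared 15 regions (21.4%, 12.5 to 32.9%), close to the 21.1% of all regions, and 6 regions (8.57%, 3.21 to 17.7%) were seen at day 0 only, against 5.60%. Trps1 held 4 of these 6, and without it the day 0 only share was 2 of 61 (3.28%, 0.400 to 11.3%), below that of the series. The intervals are exact binomial and cover counting error only, and regions of 1 gene are not independent of each other. Snai1 supplied 15 of the 28 regions bound on all days. Without Snai1 the share bound on all days was 26.5% (14.9 to 41.1%), near that of the series.

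**Figure D2:**
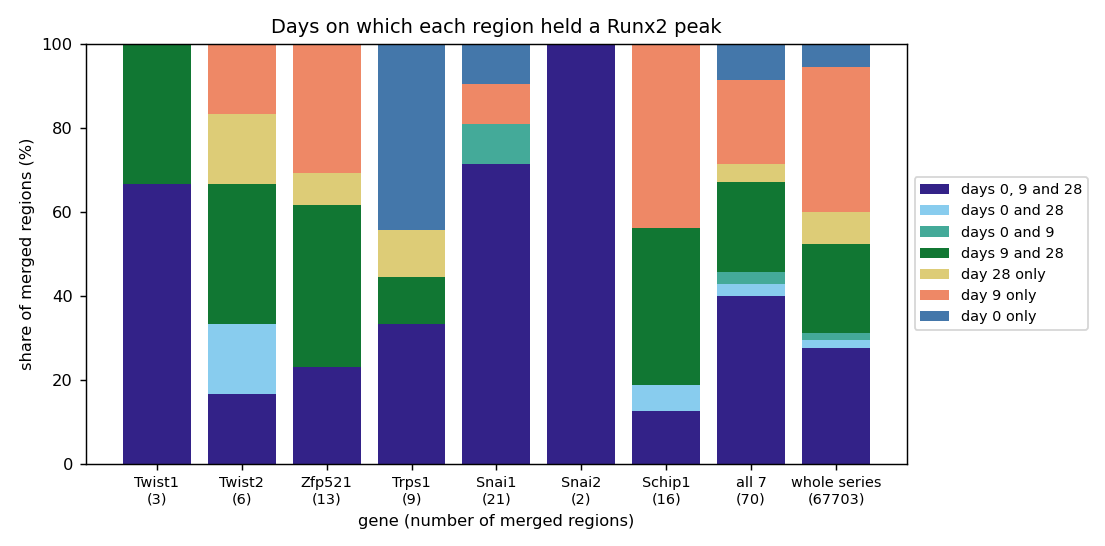
Share of merged regions (%) by the days on which they held a Runx2 peak, for each gene, for the 7 genes together and for all 67703 regions, with the number of regions in brackets. Snai1 and Snai2 are dominated by regions bound on all 3 days (15 of 21 and 2 of 2), Trps1 holds 4 of the 6 regions of day 0 only, and Schip1 and Zfp521 hold 11 of the 14 regions of day 9 only.

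By the position of their centres, 36 of the 70 regions lay in introns (51.4%, 39.2 to 63.6%), 27 were intergenic (38.6%, 27.2 to 51.0%), 4 lay in exons, 2 in promoters and 1 at a transcription termination site. Over the whole series introns held 42.9% of regions and intergenic sequence 27.8%. None of the 70 (0 to 5.13%) fell in the 20 kb upstream of a start site outside genes, where 10.6% of all regions lay. The introns belonged mainly to Schip1, Zfp521 and Trps1, and the intergenic regions mainly to the sequence past Snai1. The score of a peak is its p-value on a negative log10 scale, multiplied by 10. It depends on depth, so each peak is given by the percentile of its score within the list of its day. The lists differ in length, and in each of them many of the top peaks share the score of 3100. Scores of 3100 or more numbered 211 in the day 0 list, against 2910 and 1630 in the lists of days 9 and 28. The order among such peaks is not read as a rank. Percentiles of different days are set side by side, and their differences are not read as changes in binding. Member peaks had median percentiles of 50.1, 60.5 and 53.1, where 50 is the middle of a list by definition. The peaks in the top 10% of their list numbered 7 at day 0, 9 at day 9 and 6 at day 28.

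Twist1 (chr12:34642536-34644682, plus strand) encodes a basic helix-loop-helix repressor of early skeletal progenitors. Its 3 regions lay within 5.7 kb of the start site. The promoter region, chr12:34641582-34643818, held 2 peaks at day 0, with scores of 243.94 and 149.23, and a single wide peak at day 9 (3100) and at day 28 (2162.18). By rank within its list the promoter peak stood at percentile 45.3 at day 0, 97.4 at day 9 and 91.9 at day 28. The TGTGGT printed for this region lay within 50 bp of the centre of the day 0 peak, and not within 50 bp of the centre of the wider day 9 and day 28 peaks. A region 4.8 kb past the start site, outside the gene, was also seen on all days, at percentiles 50.9, 83.5 and 66.4. The remaining region, at 5.7 kb, was listed at days 9 and 28. The start of the neighbouring gene Ferd3l lies in the window and had no peak on any day.

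Twist2 (chr1:93698038-93744605, plus strand), the paralog of Twist1, had no peak on its promoter on any day. The study designed an amplicon of 70 bp near this start site as a negative control for ChIP-PCR, and its primers are printed here to mark the place. No PCR value was used.
Twist2 forward primer: tcagcaagatccagacgctc
Twist2 reverse primer: tcgctctggagaacctggta
Each primer matched chromosome 1 of NCBIM37 at 1 position, and together they span chr1:93698505-93698574, 501 bp into the gene, inside an annotated exon and beyond the promoter as counted here. No peak overlapped the amplicon on any day. The nearest peak was 21.4 kb away at day 0, 58.6 kb at day 9 and 21.3 kb at day 28. The strongest Twist2 peak lay outside the gene, 59.9 kb past the start site at chr1:93757110-93758735, and stood at percentile 98.7 at day 0, 93.8 at day 9 and 86.2 at day 28. It was the only Twist2 region seen on all 3 days, and it holds 5 copies of TGTGGT. The intronic region at 22.2 kb was weak, at percentiles 11.7 and 9.56 at days 0 and 28, and was not listed at day 9. The 2 regions farthest past the gene, at 73.5 and 86.4 kb, lie nearer to the start of Hdac4, which encodes a histone deacetylase that also binds Runx2. Within 10 kb of its body Twist2 had 1, 0 and 1 peaks, and within 100 kb it had 5, 16 and 9.

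Snai1 (chr2:167363695-167368314, plus strand) encodes the zinc finger repressor of epithelial genes. It had 21 regions, of which 19 ran from the start site onward over 54.4 kb. The region over the start site was chr2:167363145-167365299. Its peak stood at percentile 91.6 at day 0 (score 1053.63), 97.4 at day 9 (3100) and 99.96 at day 28 (3223.06). At day 28, 1630 peaks scored 3100 or more, so 99.96 is not read as a rank above those at 3100. The region contained no TGTGGT. A total of 17 regions lay past the 3′ end, within 49.2 kb. They included the only member region with a score of 3100 on all 3 days, at 52.5 kb, which stood at percentiles 99.5, 97.4 and 97.8. Those percentiles mark the shared score and not a place among the peaks that hold it. The neighbouring region at 53.4 kb stood at 36.9 at day 0, 97.4 at day 9 and 85.6 at day 28. The regions at 34.0 and 37.1 kb were high on each day as well. The former stood at 82.8, 97.4 and 95.1, and the latter at 97.1, 97.4 and 97.8. High ranks in the Snai1 window were spread over the start site, the 3′ end (5.6 kb, percentiles 92.8, 85.7 and 84.9) and distal sequence. Only 41 of the 22359 genes had as many as 15 regions bound on all days.

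Other annotated genes lie in the Snai1 window. The starts of Rnf114 and Spata2, 45.5 and 45.3 kb before Snai1, share a region with peaks on all days at percentiles 61.3, 71.1 and 73.8. The non-coding transcript Gm11476 starts 15.1 kb and the pseudogene Gm11475 starts 53.2 kb past the Snai1 start site, and peaks covered both positions on each day. For the 5 regions from 47.3 kb onward the nearest protein-coding start site was that of Ube2v1. Counting only peaks whose nearest start site is that of Snai1 left 14, 15 and 11 peaks. The series of peaks also ran up to the edge of the window, and within 100 kb Snai1 had 27, 36 and 25 peaks. Within 10 kb it had 5, 7 and 6. Many of these peaks lay close together, and joining peaks less than 500 bp apart left 13, 14 and 13.

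Snai2 (chr16:14705945-14709488, plus strand), the paralog of Snai1, had only 2 regions, both bound on all days. The promoter region, chr16:14705253-14706302, stood at percentile 25.0 at day 0, 76.7 at day 9 and 71.1 at day 28, with 2 peaks at day 9. It contained no TGTGGT. The distal region at 30.5 kb stood at 25.8, 54.5 and 27.4, and TGTGGT lay within 50 bp of its centre on every day. The paralogs differed in number, with 19, 22 and 16 peaks at Snai1 against 2, 3 and 2 at Snai2 in windows of 104.6 and 103.5 kb.

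Trps1 (chr15:50486307-50721587, minus strand) encodes an atypical GATA-type repressor whose loss causes a skeletal dysplasia in humans. Its day 0 peaks lay mainly near the far end of the gene. The top-ranked one, chr15:50495904-50497053 in the sixth intron, stood at percentile 98.0 at day 0 (score 2191.54), 62.7 at day 9 (412.58) and 58.0 at day 28 (435.83). TGTGGT was within 50 bp of the centre of its day 0 and day 9 peaks. The region holds 3 copies, and the copy printed above is the one at the day 0 centre, not the one near the day 9 centre. The narrower day 9 peak had its centre in exon 7. In intron 6, 4 regions were listed at day 0 only, between 186.1 and 198.8 kb past the start site and within a span of 13.5 kb (chr15:50522316-50535852). Their day 0 percentiles were 17.0, 49.3, 36.8 and 56.0. A set of 4 or more day 0 only regions was found at 0.501% of protein-coding genes, and Trps1 was the only member with it. That count was not scaled to window length, and the Trps1 window spans 335.3 kb. Near the 5′ end the promoter region (chr15:50721358-50722305) had no peak at day 0 and stood at 42.7 at day 9 and 48.8 at day 28. The region 1.4 kb into the first intron stood at 3.98, 79.6 and 64.1, and the region at 20.4 kb at 10.5, 63.0 and 32.8. A region at 16.4 kb was listed at day 28 only. With equal numbers of top-scoring peaks Trps1 had 7, 3 and 4 peaks, still the fewest at day 9. Snai1 had the same order in that setting, with 19, 12 and 13 peaks. When only scores of 200 or more were kept (p of 1e-20 or less), Trps1 had 4, 4 and 5. The lower number at day 9 was then lost. Of the 4 day 0 only regions, 3 passed that threshold.

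Zfp521 (chr18:13845522-14131242, minus strand) encodes a protein with many zinc fingers that recruits corepressors. Its promoter region stood at percentile 58.9 at day 0 (score 338.89), 91.9 at day 9 (2190.97) and 92.4 at day 28 (2230.31). Of its 13 regions, 3 were bound on all days, 5 at days 9 and 28, 4 at day 9 only and 1 at day 28 only. None was bound at day 0 alone. The regions of all 3 days lay at the promoter, 2.3 kb into the gene (11.5, 68.7 and 66.6) and 121.9 kb into it (3.81, 65.2 and 27.7). The 4 regions of day 9 only were weak, at percentiles from 7.83 to 17.8, and lay in introns 2, 3 and 5. Beyond 17.4 kb from the start site, no Zfp521 peak of any day passed percentile 68.3.

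Schip1 (chr3:67868864-68430404, plus strand) is the longest of the genes at 561.5 kb and overlaps the annotated gene Iqcj. No peak lay at its first start site on any day. An internal start site 429.3 kb further on carried a peak on all days, at percentiles 63.9, 84.6 and 79.2 (chr3:68296979-68299811). Of the 16 regions, 14 lay at or beyond this internal start, and 7 regions were seen at day 9 only and 6 at days 9 and 28. The day 9 only regions stood between percentiles 11.0 and 72.0. A further start site at 530.8 kb carried a peak at day 9 only, at percentile 36.6. The region at 527.8 kb, whose motif is printed above, was not listed at day 0. It stood at 49.4 at day 9 and 5.81 at day 28. The 2 regions bound on all days lay at 429.5 and 444.2 kb, and the latter stood at 58.9, 68.5 and 14.9. The region farthest past the gene, at 592.0 kb, lies nearer to the start of Il12a.

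**Figure D3:**
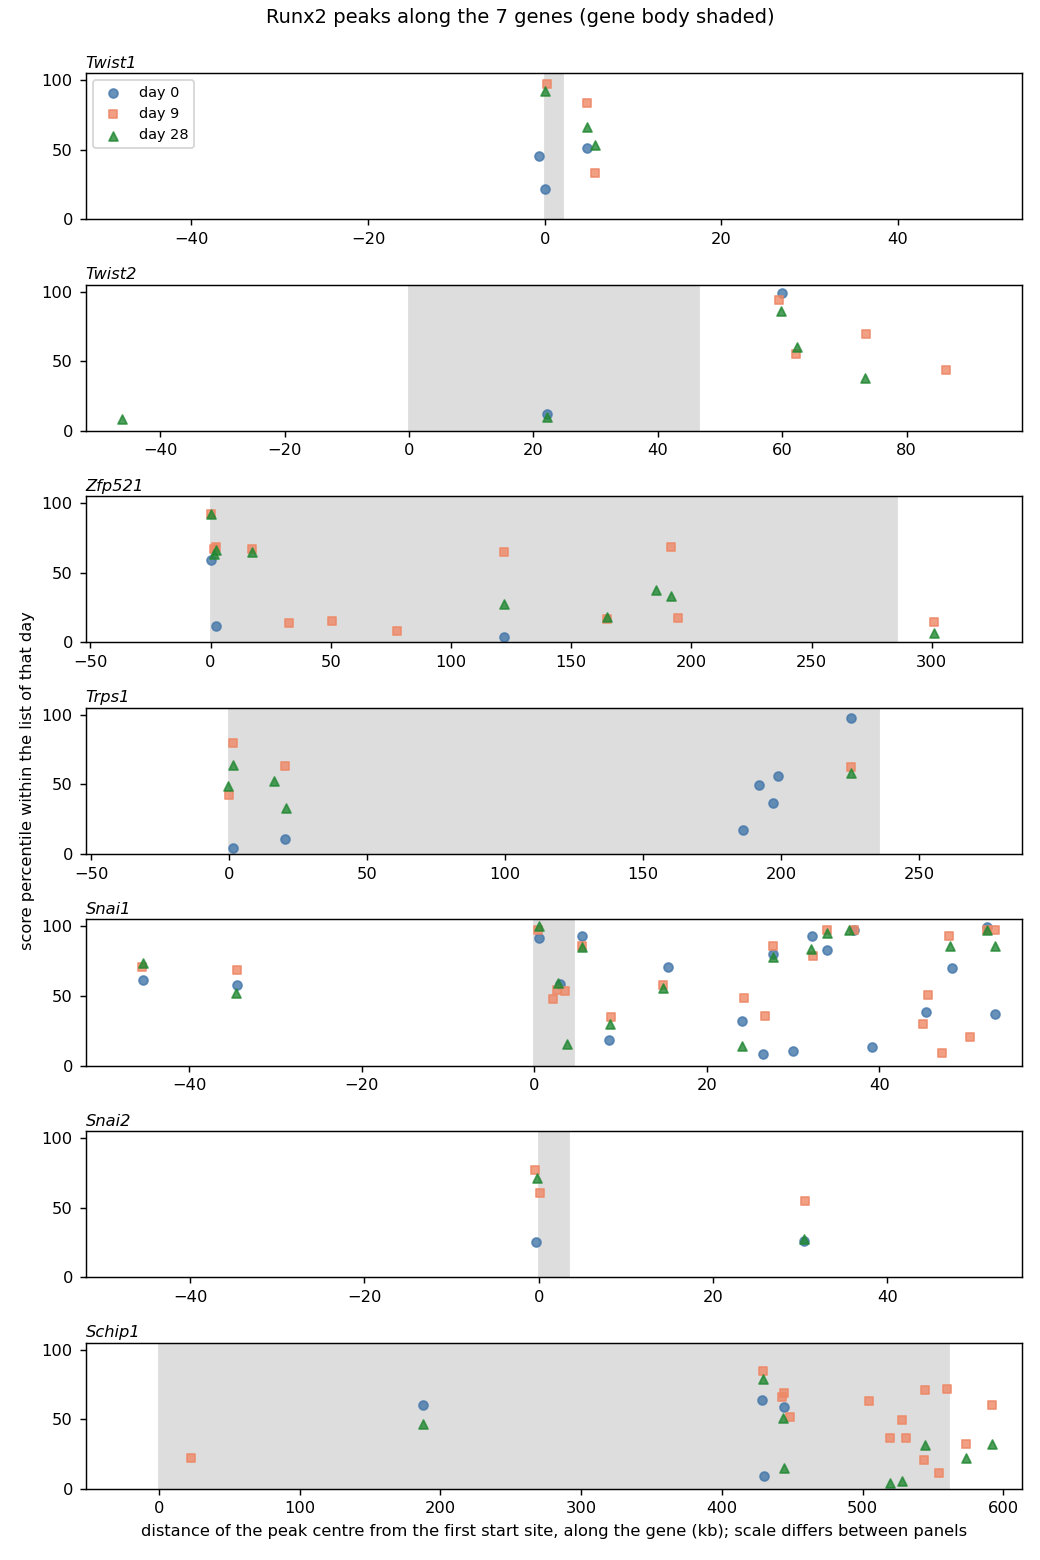
Runx2 peaks of each day by the distance of their centre from the first start site of the gene (kb, scales differ between panels) and by score percentile within the list of that day, with the gene body shaded. Snai1 peaks crowd the 49.2 kb past its 3′ end, Trps1 holds a run of day 0 peaks between 186.1 and 225.1 kb, and Schip1 peaks gather beyond 429.3 kb.

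On promoters, from 1000 bp before to 150 bp after a start site, 5 members had a peak at day 0, 6 at day 9 and 6 at day 28. Among all protein-coding genes 42.7%, 51.6% and 50.1% had such a peak. The 5 members with a promoter peak on all 3 days were Twist1, Zfp521, Snai1, Snai2 and, at its internal start, Schip1, and 41.5% of all genes had one on all days. In each of these 5 genes the percentile of the promoter peak was lowest at day 0, which was also so for 86.1% of the 9272 genes with a promoter peak on all days. The lists differ in length and in the spread of their scores, so places counted from the top are given beside the percentiles. Counted from the top of each list, the Schip1 peak stood at place 9199 at day 0, 9312 at day 9 and 8400 at day 28, so it was not lowest at day 0. The Twist1 peak stood at place 13928, 1561 and 3264, and the Zfp521 peak at 10462, 4884 and 3074. The Snai1 peak stood at 2148, 1561 and 16, and the Snai2 peak at 19092, 14105 and 11653. A score of 3100 or more was held by 2910 peaks at day 9 and 1630 at day 28, many of them at 3100. Places among them, such as 1561 and 16, are not read as ranks. With ties counted midway, 4 of the 5 members were lowest by place at day 0, against 49.3% of the 9272 genes. Trps1 lacked a promoter peak at day 0 and Twist2 lacked one throughout. At a p-value of 1e-50 or less only the Snai1 promoter kept a peak at day 0, against 5 member promoters at day 9 and 6 at day 28. At day 28 these included Trps1 only through a start site 992 bp into the gene, with a score of 550.7. The day 28 peak at the first Trps1 start site scored 320.08 and did not pass. Of all protein-coding genes 14.5%, 38.6% and 37.9% had a promoter peak at that threshold, so the day 0 share was the lowest of the days in the whole series too.

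**Figure D4:**
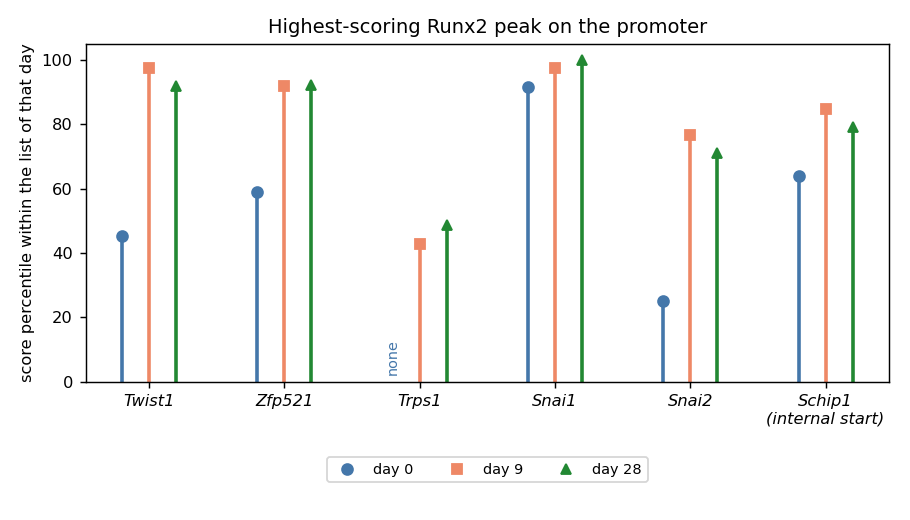
Score percentile within the list of each day of the highest-scoring Runx2 peak on the promoter of 6 genes, the first start site being used except for Schip1. The day 0 percentile is the lowest in each of the 5 genes that have one, as in 86.1% of all genes with a promoter peak on all days, in lists that differ in length. Trps1 has none at day 0, and Twist2, which is not drawn, has none on any day.

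The core motif TGTGGT, on either strand and no more than 50 bp from the peak centre, was found in 6 of 40 member peaks at day 0 (15.0%, 5.71 to 29.8%), 9 of 63 at day 9 (14.3%, 6.75 to 25.4%) and 9 of 49 at day 28 (18.4%, 8.76 to 32.0%). Among all peaks the shares were 16.0%, 25.3% and 20.9%, and at 500 bp from the centre they were 6.68%, 7.32% and 6.99%. The day 0 and day 28 shares of all peaks lay well within the intervals of the members, and the day 9 share lay at the upper bound of its interval. With TGCGGT allowed beside TGTGGT the day 9 share was 15.9% of member peaks (7.88 to 27.3%) against 28.5% of all peaks, which lay above the interval. Over the whole width of the peaks the motif was found in 22 of 40, 26 of 63 and 22 of 49 member peaks. The day 9 share, 41.3% (29.0 to 54.4%), and the day 28 share, 44.9% (30.7 to 59.8%), were below the 58.7% and 61.6% of all peaks, whereas the day 0 share, 55.0% (38.5 to 70.7%), had the 61.4% of all peaks within its interval. Median widths of member peaks were 1034, 558 and 720 bp, against 917, 554 and 763 bp for all peaks. Of the peaks at the promoters of Snai1, Snai2, Zfp521 and Trps1 and at the internal start of Schip1, none had the motif within 50 bp of its centre.

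**Figure D5:**
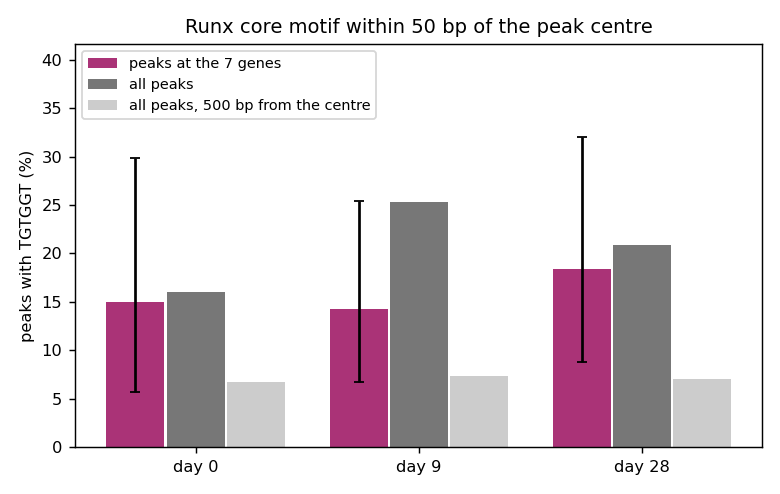
Share of peaks (%) with TGTGGT within 50 bp of the peak centre at each day, for the peaks at the 7 genes (bars with exact binomial 95% intervals), for all peaks, and for all peaks at 500 bp from the centre. The members stand at 15.0%, 14.3% and 18.4%, and all peaks at 16.0%, 25.3% and 20.9%, of which the day 9 value lies at the upper bound of the members' interval.

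Other proteins that restrain Runx2 and the genes that it serves give the setting for these counts. A list of 25 other restraining proteins, such as histone deacetylases, Tle corepressors, Smad proteins and ubiquitin ligases, had medians of 7, 15 and 9 peaks, above the members' 3, 4 and 5 and the 2, 5 and 3 of all genes. Peaks were present at 24 of these 25 genes at day 0 and at all 25 at days 9 and 28. Promoter peaks were present at 20, 22 and 22 of them. The shares over all protein-coding genes were 73.8%, 83.2% and 78.4% for a peak and 42.7%, 51.6% and 50.1% for a promoter peak. Fewer peaks at day 9 than at day 0 were found in this list only at Tle1 and Wwp1. Tle1, a Groucho-type corepressor, had 5, 4 and 2 peaks, and the ubiquitin ligase gene Wwp1 had 4, 3 and 3. Another list held 23 relatives and partners of the members, such as E proteins, Id proteins, Gata and Zeb factors. Their medians were 3, 8 and 5 peaks and none had fewer at day 9. Over all protein-coding genes 4.02% had fewer at day 9 than at day 0. The relative of Zfp521 on both lists, Zfp423, had 8, 44 and 29 peaks. Runx2 itself, with 13, 25 and 19 peaks, its partner Cbfb and 7 genes that Runx2 is known to activate had medians of 6, 17 and 14. Among them Col1a1, the main collagen of bone, had 12, 33 and 22 peaks, and Bglap2, which encodes osteocalcin, had 2, 17 and 15.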

How the data were processed

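Runx2 ChIP-Seq peak lists of MC3T3-E1 cells at days 0, 9 and 28 were analysed, 1 per day. Submitters' processing notes name CASAVA 1.6, Bowtie 0.12.8, MACS 1.4.1 and the build mm9. Per the methods, the authors pooled the replicates of each day, and the deposited score is the p-value from MACS as the authors gave it, on a negative log10 scale multiplied by 10, and no score is below 100. Input and read tracks were not analysed here. Peaks were matched to protein-coding genes of GENCODE M1 (NCBIM37), which replaces the RefSeq genes of the study, and peaks sharing at least 1 bp were merged. Ranks within a list or among genes count ties midway, and 95% intervals are Clopper-Pearson. Peaks named are the top-scoring one of each gene and day, those at start sites and those bound on all days. Other peaks were named after their values were seen. The members and gene lists were chosen with earlier results of these data known, so no test was made. Python 3.11.15, pandas 2.3.3, numpy 2.4.6, SciPy 1.17.1 and matplotlib 3.10.9 were used. The counting steps were tested on simulated data. Alternatives covered window, p-value, list length, overlap, gene assignment, motif and omission of each gene.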

Additional observations from a re-analysis of the deposited data

How the results depend on the processing

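Of 181 alternative values of the main results, 147 stayed within 1.5 times the value given (counts and ranks) or within its interval (shares), and the cause of the other 34 was not tested. With 10 kb windows the member peaks numbered 24, 40 and 31 at days 0, 9 and 28, and with 100 kb windows 100 at day 9. With p-values of 1e-20 or less there were 25 at day 0. With 1e-50 or less there were 9, 24 and 20, only 3 genes had a peak and 1 a promoter peak at day 0, and 37.0% of regions were shared by days 9 and 28 (38.3% of all regions). With equal numbers of top-scoring peaks there were 34 at day 9 and 32 at day 28, and 7.69% of regions were of days 9 and 28, 9.62% of day 9 only and 23.1% of day 0 only, against 13.7%, 11.9% and 20.1% of all regions. Without Snai1, 26.5% of regions were bound on all days, and without Trps1, 3.28% were of day 0 only. TGTGGT was found in 55.0%, 41.3% and 44.9% of whole member peaks and, within 100 bp of the centre, in 25.4% at day 9. Per 100 kb the percentiles were 32.7, 47.0 and 49.1 for Zfp521, 29.5, 38.5 and 35.9 for Schip1, and 27.7 at day 9 and 37.3 at day 28 for Trps1. With 10 kb windows they were 67.8 at day 9 and 79.5 at day 28 for Twist1, 13.9 at day 9 for Twist2 and 77.2 at day 9 for Trps1. With 100 kb windows Twist2 stood at 73.8 at day 9. Leaving out each replicate was not possible because the libraries of a day were pooled before peaks were called. No paired analysis was possible because each day has 1 list. Scores and list lengths depend on sequencing depth, which differed between the days, so a peak absent from a list was not detected at that depth and threshold, and is not shown to be absent from the cells.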

Other observations

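Letters bound by the member proteins themselves were also searched in the member peaks, on either strand and no more than 50 bp from the centre. CAGGTG, the E-box form that Snail proteins bind, was found in 3 of 40 member peaks at day 0, 4 of 63 at day 9 and 4 of 49 at day 28 (7.50%, 6.35% and 8.16%, with upper interval bounds of 20.4%, 15.5% and 19.6%), against 4.38%, 6.29% and 4.66% of all peaks. At 500 bp from the centre of all peaks the CAGGTG shares were 7.09%, 7.84% and 7.47%. The member counts include the start-site peak of Snai1 at days 0 and 9 and the region 4.8 kb past the Twist1 start site on all 3 days. CAGGTG and TGTGGT can overlap by the letters TG. GATAA, the core that GATA-type proteins such as Trps1 bind, was found in 3 member peaks on each day (7.50%, 4.76% and 6.12%), against 6.50%, 4.63% and 5.62% of all peaks. Only 1 of these member peaks, at day 28, was at Trps1 itself. At 500 bp from the centre of all peaks the GATAA shares were higher, at 11.7%, 11.2% and 11.4%.

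A count of 4 day 0 only regions, as at Trps1, was also found at 1 gene of the list of relatives and partners. None of the 25 other restraining proteins had as many. Over all protein-coding genes 0.501% had 4 or more, and these counts were not scaled to window length. Tcf4, which encodes an E protein that pairs with Twist proteins, had 4 such regions in its window, whose positions were not compared with those at Trps1, with 10, 15 and 17 peaks at days 0, 9 and 28.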
